A study of Glycine max with 102 samples.

Results

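Transcript levels of 7 Rubisco genes were followed across leaf libraries of 102 soybean accessions. They are 3 genes for the small subunit (Glyma.13G046200 on chromosome 13, and the pair Glyma.19G046600 and Glyma.19G046800 on chromosome 19) and 4 genes for Rubisco activase (Glyma.02G249600, Glyma.14G067000, Glyma.18G036400 and Glyma.11G221000). These 7 of 56044 gene IDs were selected on their high FPKM in these same libraries, so their levels are given as a description. The study measured RNA from leaves of plants at the V2 stage, at an age of 18 days, with 1 library per accession. The accessions were 41 parental lines of soyNAM, a nested association mapping population of soybean, and 61 milestone cultivars. The labels name no treatment, plot, day or batch for either group.

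Rubisco fixes carbon dioxide in the chloroplast. Its large subunit is made from a chloroplast gene, whereas the small subunit is made from a family of nuclear genes and is imported, so that leaves express several small subunit genes at very high levels. Rubisco activase is an ATP-dependent chloroplast enzyme that removes inhibitory sugar phosphates from the Rubisco active site. In Arabidopsis, small subunit and activase genes are induced by light, and activase transcripts also follow the circadian clock.

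Levels are in FPKM, a fragment count scaled by transcript length and by library size, so they can be compared between genes. Glyma.13G046200 had the highest mean of all genes in the table. In the soyNAM parents it ran from 3087 FPKM in the library Parent to 25063 in NAM02, with a median of 16832. In the milestone cultivars it ran from 7261 FPKM in library 60 to 31669 in library 25, with a median of 20150 over the 60 libraries above 0. The groups overlapped over most of their range, and 1 library, milestone 47, was listed at exactly 0.

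The activase gene Glyma.11G221000 ranked 3 in the table by its mean. It ran from 60.5 FPKM in NAM10 to 8861 in NAM08 with a median of 6794 among soyNAM parents, and from 3765 in library 60 to 10850 in library 25 with a median of 7963 among milestone cultivars. Glyma.18G036400, which ranked 5, ran from 119 FPKM in NAM10 to 6545 in NAM08 with a median of 4769, and from 2773 in library 57 to 11676 in library 25 with a median of 6444. Both genes had the same highest library in each collection. The other activase genes were lower. Glyma.02G249600 ran from 44.8 FPKM in NAM10 to 1257 in NAM64 with a median of 1023 in the soyNAM parents, and from 64.7 in library 17 to 1771 in library 25 with a median of 1272 in the milestone cultivars. Glyma.14G067000 ran from 5.41 FPKM in Parent to 417 in NAM25 with a median of 345, and from 353 in library 60 to 712 in library 25 with a median of 495. No soyNAM parent reached the milestone median of Glyma.14G067000. Library 25 was the highest milestone library for Glyma.13G046200 and for all 4 activase genes.

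The chromosome 19 pair was either high or listed at exactly 0. Where it had a value, Glyma.19G046600 ran from 1098 FPKM in Parent to 6940 in NAM41 with a median of 4597 over 13 soyNAM parents, and from 1487 in library 3 to 8295 in library 61 with a median of 3437 over 30 milestone cultivars. Glyma.19G046800 ran from 1075 FPKM in Parent to 5949 in NAM50 with a median of 3885 over the same 13 soyNAM parents, and from 1177 in library 3 to 7755 in library 61 with a median of 4029 over 29 milestone cultivars. The same libraries therefore held the lowest values of both genes.

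**Figure D1:**
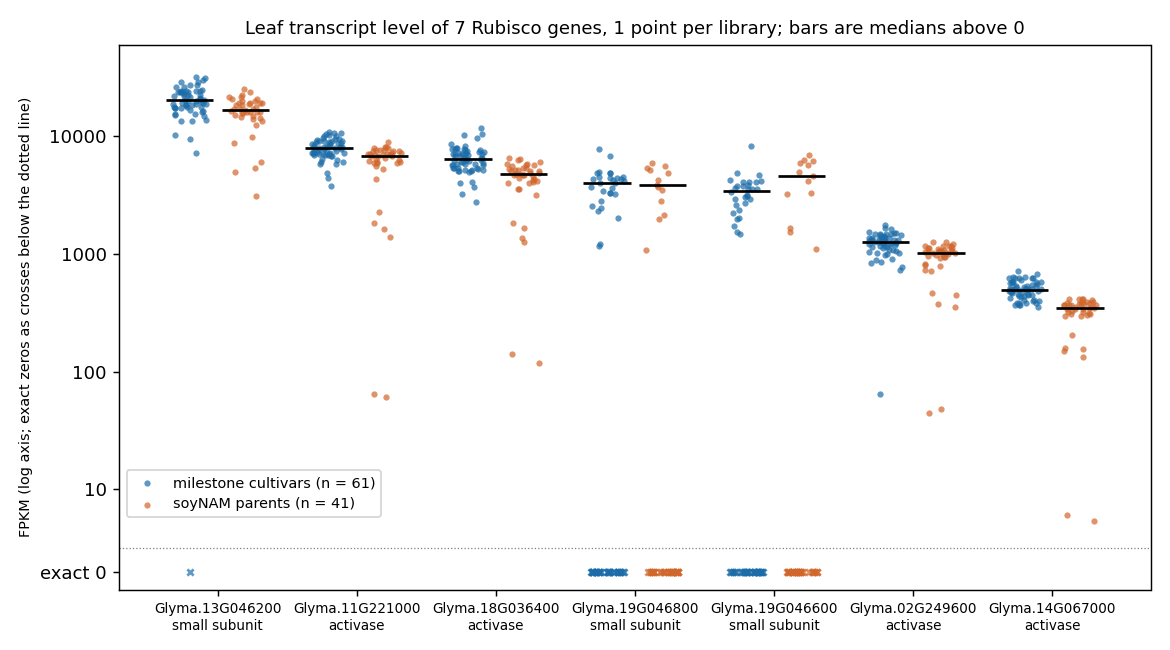
FPKM of each of the 7 genes on a log axis, 1 point per library, with milestone cultivars in blue, soyNAM parents in orange, bars at the medians above 0 and exact zeros as crosses below the dotted line. The chromosome 19 pair has no value between 0 and 1075 FPKM, and Parent and NAM10 lie far below the others in the activase genes, joined by milestone library 17 in Glyma.02G249600.

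The order of levels was stable at its top and bottom and mixed in between. Glyma.13G046200 was above Glyma.11G221000 in 101 of 101 libraries with a value, at a median ratio of 2.61. Glyma.11G221000 was above Glyma.18G036400 in 97 of 102 libraries, at a median ratio of only 1.29. The order within the chromosome 19 pair depended on the collection. Glyma.19G046800 was the higher in 23 of 29 milestone cultivars, at a median ratio of 1.21, but in 4 of 13 soyNAM parents, at a median ratio of 0.899. The place of the pair against Glyma.18G036400 also did: the activase gene exceeded Glyma.19G046800 in 28 of 29 milestone cultivars but in 4 of 13 soyNAM parents. Glyma.02G249600 was above Glyma.14G067000 in 101 of 102 libraries, at a median ratio of 2.67, and the exception was milestone library 17.

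Both genes of the chromosome 19 pair were at exactly 0 in the same 59 libraries, 28 of 41 soyNAM parents and 31 of 61 milestone cultivars. In 1 further library, milestone 18, Glyma.19G046600 stood at 4101 FPKM and Glyma.19G046800 at 0. That left 42 libraries with a value for both. No low value lay between, since the smallest value above 0 was 1075 FPKM. This gap was rare in the table. Of 20849 genes with an exact 0 in some library and a value in another, 3 had no value above 0 lower than 1000 FPKM, and these 3 were the small subunit genes. Among 79 genes whose median above 0 reached 1000 FPKM, again only these 3 had any exact 0. Genes with neighbouring IDs did not follow the pair. Glyma.19G046500 and Glyma.19G046700 were at 0 in all 102 libraries, whereas Glyma.19G047000 and Glyma.19G047100 were above 0 in all of them. Glyma.19G046300 was at 0 in 24 of the 59 libraries with the pair at 0 and in 13 of the 42 with it measured. Glyma.19G046900 was at 0 in 24 and 15 of them. Both were low, reaching at most 0.376 and 1.49 FPKM.

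The zeros moved with the relative number of fragments from Glyma.13G046200. FPKM gives no read count, but the smallest values of rarely read genes give the relative depth of each library, scaled to a median of 1 over the 102 libraries. Relative depth ran from 0.844 to 4.60 in soyNAM parents and from 0.338 to 1.39 in milestone cultivars, with medians of 1.17 and 0.838. The FPKM of Glyma.13G046200 multiplied by this depth is a relative number of its fragments. The product was between 4807 and 18417.5 in the 42 libraries with a value for both genes of the pair. It was between 15097 and 32481 in the 58 libraries with both genes at 0 and a value for Glyma.13G046200. Thus no library above 18417.5 had a value for the pair, and 50 of the 58 libraries with zeros lay above it. Below 15097 lay 30 of the 42 libraries with values and none of those with both at 0. The states overlapped only between these bounds, where 12 libraries with values and 8 with zeros lay. The separation did not hold for the sum of all 3 small subunit genes multiplied by depth. That product ran from 7682 to 28398 with the pair measured and from 15097 to 32481 with it at 0, and 3 of the 58 libraries with zeros lay above the highest measured one. In the libraries with zeros this sum holds Glyma.13G046200 alone.

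**Figure D2:**
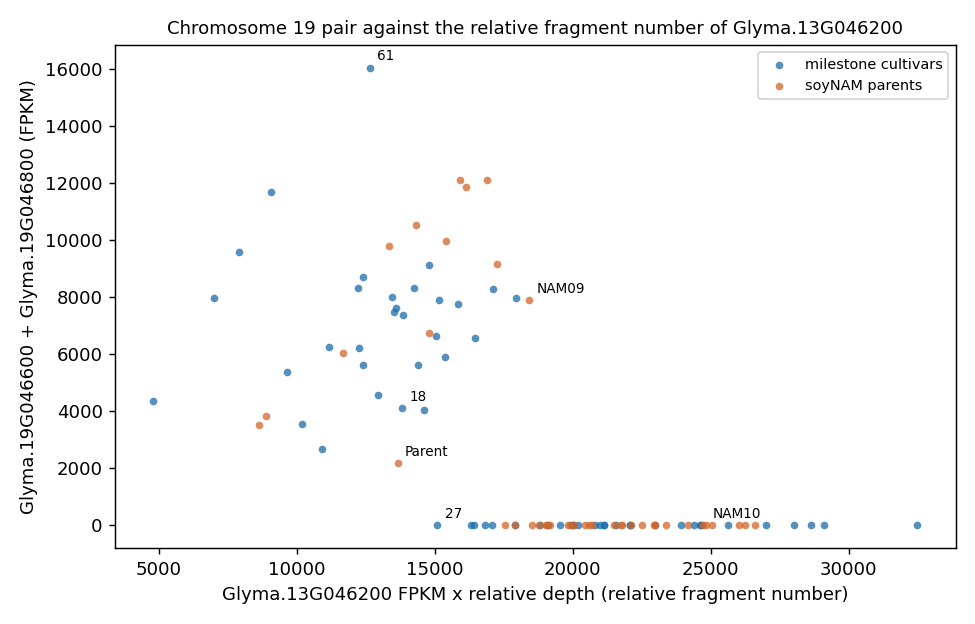
Summed FPKM of Glyma.19G046600 and Glyma.19G046800 (vertical axis) against the FPKM of Glyma.13G046200 multiplied by relative depth (horizontal axis), 1 point per library, for the 101 libraries with a value of Glyma.13G046200. Every library right of 18417.5 (NAM09) lies at 0, and the lowest product with both genes at 0 is 15097 (library 27).

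For Glyma.13G046200 the same held within each collection. In the soyNAM parents its product ran from 8647 to 18417.5 with the pair measured and from 17559 to 26600 with the pair at 0. In the milestone cultivars it ran from 4807 to 17939 and from 15097 to 32481. The deepest 2 libraries fell on opposite sides. Parent, at a relative depth of 4.42, had a product of 13654 and values for both genes. NAM10, at a relative depth of 4.60, had a product of 24821 and 0 for both. Milestone library 47, the only one with Glyma.13G046200 at 0, also had both genes of the pair at 0. Its 4 activase genes summed to 10765 FPKM, 67.5% of the median of the 60 milestone cultivars other than library 60. Its relative depth was 1.31, although the estimates from different reference libraries differed most for this library, by 0.165 on the log2 scale. The zeros are therefore given here as listed zeros and not as absence of the transcript. Whether they are failed estimates was not tested against reads.

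Where the pair was at 0, the other small subunit gene was not uniformly higher. In milestone cultivars Glyma.13G046200 ran from 13350 to 30996 FPKM with a median of 23876 in the 30 libraries with the pair at 0, and from 7261 to 31669 with a median of 18486 in the 29 with the pair measured. Of these, 22 of 30 and 7 of 29 lay above the median of the collection. In soyNAM parents it ran from 5393 to 25063 with a median of 17423 against 3087 to 19222 with a median of 14551. Parent, NAM31, NAM11 and NAM06, at 3087, 6025, 4932 and 9897 FPKM, were among those with the pair measured. NAM10 and NAM48, at 5393 and 8734 FPKM, were among those with the pair at 0. Glyma.13G046200 is part of the product that separates the states, so a higher level there is no independent observation, and no test was made. Set against the sum of all 3 small subunit genes where measured, Glyma.13G046200 alone did not reach the same middle value. The measured sums had medians of 25850 FPKM in milestone cultivars and 22435 in soyNAM parents.

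The summed activase FPKM overlapped widely between the states. In milestone cultivars their sum ran from 8526 to 22681 FPKM with the pair at 0, with a median of 16074, and from 8212 to 25009 with the pair measured, with a median of 15212. It lay above the median of the collection in 18 of 31 libraries with the pair at 0 and in 11 of 29 with it measured. In soyNAM parents the sum had a median of 13573 FPKM with the pair at 0 and 11434 with it measured, and 18 of 28 and 2 of 13 libraries lay above the median of the collection. The 13 include Parent, NAM31, NAM11 and NAM06, with sums of only 260, 3972, 3147 and 3633 FPKM. The 28 include NAM10, NAM48 and NAM29, with sums of 230, 4684 and 8416 FPKM. Medians without these libraries are not given. No test was made.

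For the collections, log2(FPKM + 1) was compared with limma over the 30101 genes whose mean reached 1 FPKM, with Benjamini-Hochberg adjustment and a threshold of 0.05. All 4 activase genes were lower in the soyNAM parents, and none of the 3 small subunit genes was called. The 4 of 7 called, all lower, stand beside 74.8% of all genes tested that were called in either direction, 37.8% that were called lower and 37% that were called higher. With so many genes called, a call by itself sets no gene apart. Each accession had 1 library, so the p-values set each difference against the spread between accessions. That spread cannot be told apart from the spread between plants or between libraries. Some clock genes differed between the collections as well. The dawn gene LHY2b (Glyma.03G261800) had a median of 215 FPKM among soyNAM parents against 333 among milestone cultivars. Medians of the other LHY copies were closer, at 374 against 395 for LHY1a, 150 against 154 for LHY1b and 98.2 against 109 for LHY2a. J (Glyma.04G050200), related to the evening gene ELF3, had 5.89 against 2.87, and E2 (Glyma.10G221500), related to GIGANTEA, 37.6 against 19.4. Their part in the activase differences was not tested. The collections also differ in depth, and collection and any unlabelled batch that goes with it cannot be told apart. Nor can fewer cells with these transcripts be told apart from less transcript per cell in whole leaf samples.

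Glyma.14G067000 had the strongest difference among the 4. Its mean was 317 ± 102 FPKM (SD, n = 41) in soyNAM parents and 501 ± 85.7 (SD, n = 61) in milestone cultivars, a log2 difference of -0.89 (SE 0.17, adjusted p = 1.33e-06 by limma). Glyma.18G036400 stood at 4372 ± 1608 and 6490 ± 1638 FPKM, a log2 difference of -0.79 (SE 0.17, limma adjusted p = 1.53e-05). For Glyma.11G221000 the means were 6047 ± 2224 and 7935 ± 1507 FPKM and the log2 difference was -0.71 (SE 0.20, limma adjusted p = 0.00107). For Glyma.02G249600 they were 921 ± 301 and 1233 ± 264 FPKM, with a log2 difference of -0.55 (SE 0.16, limma adjusted p = 0.00152). Among all genes tested these differences stood at percentiles 7.74, 9.2, 10.7 and 15, in the same order, counted from the most negative.

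The size of these differences rested in part on few libraries. Parent, NAM10, NAM31, NAM11 and NAM06 had the lowest median Spearman correlations with the other libraries over all genes with a mean of 1 FPKM or more, 0.662 to 0.773 against 0.896 for the middle library and 0.842 for NAM48 and NAM29. Without these 5 the log2 differences of the activase genes were -0.52, -0.41, -0.24 and -0.24 in the order above, with limma adjusted p-values of 4.94e-15, 1.28e-06, 0.000834 and 0.0369, beside 77.4% of all genes called in either direction and 39.4% called lower. Without NAM48 and NAM29 as well, a choice made after seeing the data, Glyma.02G249600 was no longer called, at -0.19 (limma adjusted p = 0.0961), while the other 3 activase genes still were.

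The small subunit genes gave differences that turned on how the zeros were treated. Glyma.13G046200 differed by -0.16 (SE 0.30, 95% interval -0.75 to 0.43, limma adjusted p = 0.641) with the 0 of milestone library 47 kept. With that value missing the difference was -0.39 (SE 0.10, limma adjusted p = 0.00051), so 1 library decided the call in limma. A rank-sum test, with that 0 kept, called Glyma.13G046200 lower in soyNAM parents (rank-sum adjusted p = 0.00049). Its means above 0 were 16163 ± 5011 FPKM (SD, n = 41) and 20415 ± 5139 (SD, n = 60). With the value missing and the 5 libraries left out it was -0.19 (limma adjusted p = 0.0208). With the value missing and quantile normalization it was -0.07 (limma adjusted p = 0.111). With the zeros kept, the pair differed by -1.96 for Glyma.19G046600 (95% interval -4.21 to 0.29, limma adjusted p = 0.114) and by -1.88 for Glyma.19G046800 (95% interval -4.14 to 0.38, limma adjusted p = 0.133). These values mostly count zeros, 28 of 41 against 31 and 32 of 61. With zeros kept and without the 5 libraries both passed the threshold, at -2.63 and -2.57 (limma adjusted p = 0.0369 and 0.0428). Without NAM48 and NAM29 as well neither did, at -2.45 and -2.39 (limma adjusted p = 0.0584 and 0.0664).

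Over measured values alone, the direction of the pair was not the same. Glyma.19G046600 stood at 4258 ± 1961 FPKM (SD, n = 13) and 3379 ± 1303 (SD, n = 30), a log2 difference of 0.23 (SE 0.21, limma adjusted p = 0.337). Glyma.19G046800 stood at 3873 ± 1523 (SD, n = 13) and 3871 ± 1421 (SD, n = 29), a log2 difference of -0.03 (95% interval -0.44 to 0.39, limma adjusted p = 0.908). Without the 5 libraries Glyma.19G046600 was higher in soyNAM parents by 0.71 (limma adjusted p = 0.000658), and Glyma.19G046800 differed by 0.36 (limma adjusted p = 0.104).

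Shares between gene copies cancel the scale of a library. A family of 8 sums, shares and ratios was compared between the collections, over libraries without an exact 0 in the genes used, with 2-sided permutation tests of 100000 resamples and Benjamini-Hochberg adjustment. The smallest p that these can give is 1e-05. The chromosome 19 pair made up 38.7% ± 2.82 (SD, n = 13) of the summed small subunit FPKM in soyNAM parents, from 32.5% in NAM15 to 43.8% in NAM46. In milestone cultivars it made up 28.3% ± 5.70 (SD, n = 29), from 18.8% in library 12 to 44.8% in library 61. All 13 soyNAM parents were above the milestone median of 28.5%, and the difference of 10.4 percentage points had an adjusted permutation p of 2e-05. Without the 5 libraries it was 9.91 percentage points (adjusted permutation p = 2.67e-05), and without library 61, left out after seeing the data, 11.03. This comparison covers only the libraries in which the pair had a value, which are those with the lower products. Glyma.13G046200 enters both the product and the share. In these libraries relative depth had a median of 1.06 in soyNAM parents and 0.728 in milestone cultivars. Glyma.13G046200 had medians of 14551 and 18486 FPKM in them. The part of this selection in the difference was not tested. With the zeros kept the difference was -1.66 percentage points (adjusted permutation p = 0.699).

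Within the pair, Glyma.19G046600 gave 51.3% ± 4.97 (SD, n = 13) in soyNAM parents and 46.6% ± 7.37 (SD, n = 29) in milestone cultivars. This missed the threshold (adjusted permutation p = 0.0607). Milestone library 60 had the highest share, 71.9%, and without it the difference passed, at 5.54 percentage points (adjusted permutation p = 0.00691).

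Among the lower activase genes, Glyma.14G067000 gave 25.1% ± 3.76 (SD, n = 41) of its sum with Glyma.02G249600 in soyNAM parents and 29.6% ± 8.45 (SD, n = 61) in milestone cultivars, with 4 of 41 soyNAM parents above the milestone median of 28.4% (adjusted permutation p = 2e-05). Library 17 alone accounted for the wide milestone range, with 90.7%. Without it, left out after seeing the data, the milestone mean was 28.6% ± 2.86 and the difference -3.54 percentage points (adjusted permutation p = 2e-05).

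**Figure D3:**
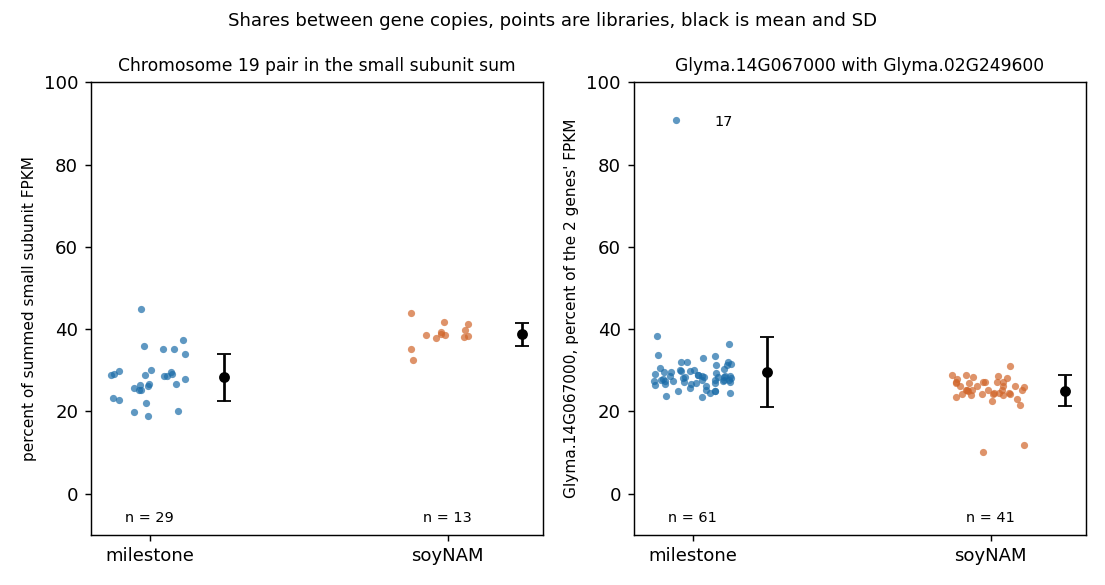
Left, percent of the summed small subunit FPKM from the chromosome 19 pair in the libraries with a value for all 3 genes. Right, percent from Glyma.14G067000 of its sum with Glyma.02G249600 in all 102 libraries; points are libraries, black marks are means with SD, and the pair's share is 38.7% in soyNAM parents against 28.3% in milestone cultivars.

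The balance of the abundant activase genes was close. Glyma.11G221000 gave 56.6% ± 5.86 (SD, n = 41) and 55.3% ± 2.78 (SD, n = 61) of its sum with Glyma.18G036400, which did not pass (adjusted permutation p = 0.158). Without the 5 libraries the soyNAM mean was 58.2% ± 1.48 (SD, n = 36) and the difference of 2.93 percentage points passed (adjusted permutation p = 2.67e-05). Glyma.02G249600 and Glyma.14G067000 together made up 11.5% ± 2.75 and 10.9% ± 1.54 of the summed FPKM of the 4 activase genes (adjusted permutation p = 0.183).

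Summed over the 4 genes, activase was lower in the soyNAM parents by 0.73 on the log2 scale, at means of 13.22 ± 1.34 (SD, n = 41) and 13.95 ± 0.31 (SD, n = 61), with an adjusted permutation p of 2e-05. Of the 41 soyNAM parents, 1 lay above the milestone median. Without the 5 libraries the difference was -0.32 (adjusted permutation p = 2.67e-05). The log2 sum of the 3 small subunit genes, in the libraries where all had a value, was 14.20 ± 0.81 (SD, n = 13) and 14.58 ± 0.41 (SD, n = 29), which missed the threshold at an adjusted permutation p of 0.0607 and turned to 0.078 without the 5 libraries. The log2 ratio of activase to small subunit was -1.45 ± 0.92 (SD, n = 13) in soyNAM parents and -0.67 ± 0.27 (SD, n = 29) in milestone cultivars. None of the 13 soyNAM parents lay above the milestone median (adjusted permutation p = 2e-05). Like the share of the pair, this ratio covers only the libraries in which the pair had a value. Its small subunit sum also holds Glyma.13G046200, which is part of the product. With zeros kept as levels, 20 of 41 soyNAM parents lay above the milestone median, and the medians were -0.55 and -0.55. The difference in means was then -0.56 (adjusted permutation p = 0.0446). That milestone mean includes library 47, at 13.4 with all 3 small subunit genes at 0, so this difference rests in part on 1 library. The difference in this ratio was -0.41 without the 5 libraries, in place of -0.79 (adjusted permutation p = 0.000192).

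In the libraries that stand apart, activase was lower by a larger factor than the small subunit. In Parent the sum of the 4 activase genes was 260 FPKM, 51.6 times below the median of the 34 soyNAM parents outside the 5 libraries, NAM48 and NAM29, whereas Glyma.13G046200 was 5.64 times below it and the chromosome 19 pair 4.58 times below the 9 of these 34 with a value. In NAM10 the activase sum was 230 FPKM, 58.3 times below, and Glyma.13G046200 was 3.23 times below. The activase genes were not equally low in these libraries. Glyma.11G221000 was 108 and 115 times below the median in Parent and NAM10, and Glyma.14G067000 67.7 and 60.6 times. Glyma.18G036400 was 34.9 and 41.7 times below, and Glyma.02G249600 was 23.5 times below in NAM10. As a result Glyma.18G036400 was above Glyma.11G221000 in these libraries, the reverse of the usual order. Glyma.02G249600 and Glyma.14G067000 together made up as much as 22.1% of the sum of the 4 activase genes in NAM10.

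A smaller deficit was seen in 4 further soyNAM parents. The activase sum was 3.38 times below the same median in NAM31, 4.26 times in NAM11, 3.69 times in NAM06 and 2.86 times in NAM48. Glyma.13G046200 was 2.89, 3.53, 1.76 and 1.99 times below in the same order. The activase sum was thus lower by a larger factor than Glyma.13G046200 in each of these 4. That did not hold for every activase gene. In NAM31 Glyma.02G249600 was 2.82 and Glyma.14G067000 2.76 times below, and in NAM11 they were 2.98 and 2.32 times below, all smaller factors than that of Glyma.13G046200. In NAM29 the activase sum was 8416 FPKM, 1.59 times below, and Glyma.13G046200 was 1.09 times below. In milestone library 60 the order was opposite, with Glyma.13G046200 2.79 times and the activase sum 1.94 times below the medians of the other milestone cultivars. With median-of-ratios scaling the factors were nearly the same, 51.8 for the activase sum in Parent and 5.71 for Glyma.13G046200.

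The clock gene LHY2b, named like the other clock genes from published assignments, encodes a transcription factor that peaks near dawn. It was low in the same soyNAM libraries. Its level was 0.196 FPKM in the library Parent and 0.239 in NAM10, and it was 40.8 in NAM31, 49.7 in NAM11, 36.4 in NAM06 and 46.1 in NAM48, against a median of 215 FPKM over the soyNAM parents. NAM29 was about as low, at 53.97 FPKM, although its activase sum was far less reduced than in those libraries. In Parent and NAM10, LHY1a stood at 2.06 and 2.58 FPKM against a soyNAM median of 374. There J stood at 47.5 and 53.6 FPKM against 5.89, and E2 at 94.5 and 94.7 against 37.6. In milestone library 60 LHY2b stood at 219 FPKM, against a median of 333 over the milestone cultivars and a lowest value of 150. Spearman's rho of the 4 activase genes with LHY2b lay between 0.45 and 0.62 in milestone cultivars (n = 61). It lay between 0.38 and 0.63 in soyNAM parents (n = 41). Without the 5 libraries, NAM48 and NAM29 it lay between -0.08 and 0.35 (n = 34). With J and E2 rho lay between -0.15 and 0.08 in milestone cultivars. The part of sampling time in the activase levels was not tested, since the labels give no time of day. Markers of other organs stayed near 0: the summed FPKM of 4 leghemoglobin genes, which mark nodules, reached at most 3.21, and that of 5 seed storage protein genes, of which 2 were at 0 in every library, at most 3.79.

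**Figure D4:**
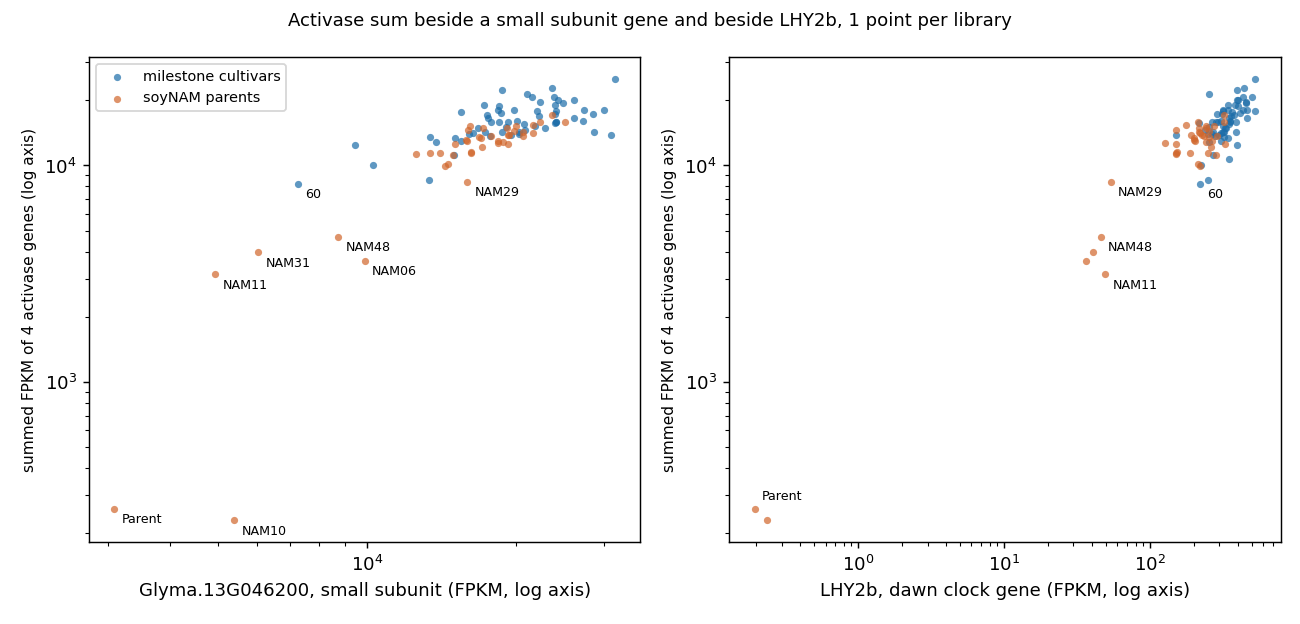
Summed FPKM of the 4 activase genes on log axes, against Glyma.13G046200 (left, 101 libraries with a value) and against the clock gene LHY2b (right, 102 libraries), with milestone cultivars in blue and soyNAM parents in orange. Parent and NAM10 lie at 260 and 230 FPKM of activase, and NAM31, NAM11, NAM06 and NAM48 lie between them and the rest.

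Milestone library 17 differed in a single activase gene. There Glyma.02G249600 stood at 64.7 FPKM, 19.7 times below the median of the 60 milestone cultivars other than library 60. The next lowest milestone value was 735 FPKM in library 9. The other activase genes were at ordinary levels in it. Glyma.14G067000 stood at 634 FPKM, 128% of that median, Glyma.18G036400 at 6970 FPKM, 108%, and Glyma.11G221000 at 8212 FPKM, 103%. The sum of all 4 was 15881 FPKM, 99.5% of the median, because Glyma.02G249600 is a small part of it.

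**Figure D5:**
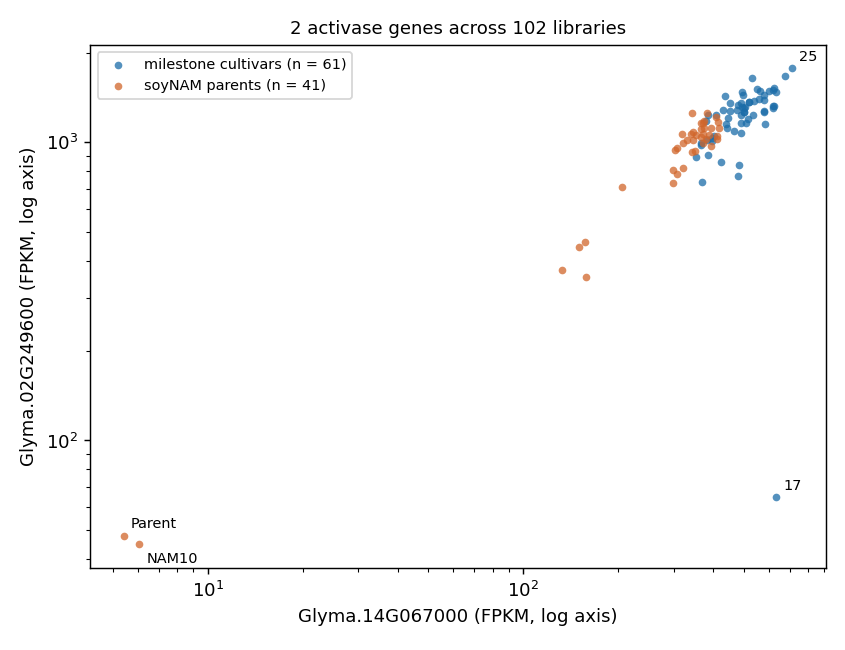
Glyma.02G249600 against Glyma.14G067000 in all 102 libraries, FPKM on log axes, with milestone cultivars in blue and soyNAM parents in orange. Library 17 has 64.7 FPKM of Glyma.02G249600 beside 634 FPKM of Glyma.14G067000, whereas Parent and NAM10 are low in both.

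Correlations between the 7 genes were computed across accessions. Of 42 correlations of log2(FPKM + 1), 21 in each collection, 36 passed the threshold by Pearson's r and 35 by Spearman's rho, with permutation tests adjusted over the 42. With exact zeros kept as levels, 19 passed by r. The share of other gene pairs that would pass was not computed. All genes of a library share its depth and composition, and 2 values of 1 library are not independent of these. The closest pair was Glyma.18G036400 with Glyma.11G221000. In soyNAM parents (n = 41) r was 0.996 (adjusted permutation p = 1.68e-05) and rho 0.976 (adjusted permutation p = 2e-05), and r was 0.987 without NAM10 and Parent. In milestone cultivars (n = 61) r was 0.910 and rho 0.912, with the same adjusted permutation p-values, and r was 0.882 without libraries 57 and 60.

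Within the lower activase genes, library 17 set the result. Glyma.02G249600 and Glyma.14G067000 had r = 0.13 in milestone cultivars (n = 61, adjusted permutation p = 0.349) but rho = 0.65 (adjusted permutation p = 2e-05), and r was 0.68 without libraries 17 and 9. In soyNAM parents (n = 41) r was 0.986 (adjusted permutation p = 1.68e-05) and rho 0.765 (adjusted permutation p = 2e-05), and r was 0.945 without NAM10 and Parent. In the soyNAM parents other than the 5 libraries, r of the 6 activase pairs lay between 0.859 and 0.967. Without NAM48 and NAM29 as well, a choice made after seeing the data, r lay between 0.640 and 0.949, and all 6 pairs still passed.

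The chromosome 19 pair, over libraries with values, followed each other with r = 0.952 (adjusted permutation p = 1.68e-05) and rho = 0.896 (adjusted permutation p = 0.000162) in soyNAM parents (n = 13), where r was 0.900 without Parent and NAM11. In milestone cultivars (n = 29) r was 0.711 (adjusted permutation p = 1.68e-05) and rho 0.730 (adjusted permutation p = 2e-05), and r was 0.568 without libraries 61 and 3. Small subunit and activase genes were tied in all 12 pairings in soyNAM parents by both measures. In milestone cultivars 7 of 12 passed by r and 5 by rho. Glyma.19G046600 passed with none of the 4 activase genes there, with r between 0.01 and 0.29 (n = 30) and adjusted permutation p-values from 0.141 to 0.966. Without the 5 libraries that stand apart, which leaves 9 soyNAM parents with a value for the pair, 1 of 3 small subunit pairings passed the permutation test by r in that collection, with r between 0.592 and 0.849, and 8 of 12 pairings with activase did. Whether the collections differ in these correlations was not tested.

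The genes whose levels were most like those of the members were found by Spearman's rho across the 61 milestone cultivars, among the genes tested. For Glyma.18G036400 the closest gene outside the members was Glyma.18G193600, with rho = 0.928 there and 0.898 in the 41 soyNAM parents. For Glyma.13G046200 it was Glyma.19G260600, with 0.848 and 0.760, and for Glyma.14G067000 it was Glyma.14G075200, with 0.739 and 0.640. For Glyma.19G046800, with its zeros kept, it was Glyma.03G036700, with 0.528 and 0.274. Over the 29 milestone cultivars with a value it was Glyma.02G132900, with 0.820 there and -0.20 in the 13 soyNAM parents with a value. These IDs carry no names in the sources used here, the genes were picked as the highest of many, and the values are a description.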

How the data were processed

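RNA of 102 leaf samples was sequenced, 41 soyNAM parents and 61 milestone cultivars, 1 library each. The authors deposited 1 table of FPKM per gene. Per the submitters' processing notes, Trimmomatic 0.32, STAR 2.4.1c and Cufflinks 2.2.1 were used; the build and the use of strand are not given in the sources used here. Columns were assigned to a collection by their names, and 0 columns were unused. Summed FPKM per library ran from 459817 to 864712.

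The 7 members, the lists and the 5 libraries left out were chosen with earlier results of these data known. Genes named are the members, genes with neighbouring IDs, the most similar genes and clock genes. None of the IDs matched the reference table (0 matches), so names and a list of other carbon fixation genes were not used. Near-identical copies can share reads. The sequences of the chromosome 19 pair were not compared, and sharing of reads between its genes was not tested.

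log2(FPKM + 1) was tested with limma 3.58.1 in R 4.3.3, with a mean trend, for genes whose mean reached 1 FPKM. A fold change on this scale understates low genes. Relative depth was the mode of the log2 ratios of low values (19000 genes with a median under 0.3 FPKM) to 4 reference libraries; it was devised after seeing the data, and the 4 estimates differed by a median of 0.02. Absolute depth is unknown, so no counting interval is given. Shares and correlations were tested by permutation (100000 resamples) in Python 3.11.15. The functions were tested on simulated data. Alternatives were pseudocounts, filters, scaling, robust moderation, a rank-sum test, treatment of zeros and left-out libraries.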

Additional observations from a re-analysis of the deposited data

How the results depend on the processing

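The count of members called was between 3 and 6 of 7 under every alternative run, against 4. Of all genes tested, 74.8% were called in the main setting and 77.4% without the 5 libraries. With no filter 13805 genes were called higher and 15550 lower of 52945, and by the rank-sum test 11570 and 11994 of 30101. With so many genes called, these counts set no member apart. The log2 differences of the 4 activase genes stayed negative under all of them. No paired analysis was possible because the labels carry no replicate numbers and each accession has 1 library.

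The following turned in sign, given as soyNAM parents minus milestone cultivars. Glyma.19G046600 was at 0.23 with the members' zeros missing, 0.71 without the 5 libraries as well, 0.27 with zeros missing and median-of-ratios scaling and 0.44 with zeros missing and quantile normalization. Glyma.19G046800 was at 0.36, 0.014 and 0.14 under the last 3 of these. Glyma.13G046200, with its 0 kept, was at 0.16 with quantile normalization, 0.044 without the 5 libraries and 0.076 without NAM48 and NAM29 as well. The log2 small subunit sum was at 0.078 under each of these omissions. The share of Glyma.02G249600 and Glyma.14G067000 in the sum of the 4 activase genes was at -0.29 and -0.37 percentage points. The share of the chromosome 19 pair was at -1.66 with zeros kept. The cause was not tested, except that a kept 0 enters these values as a level.

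Some differences newly passed the threshold. The log2 small subunit sum did so without library 60, at -0.42. The share of Glyma.19G046600 in the pair did so at 6.25 without the 5 libraries, and also without NAM48 and NAM29, and at 5.54 without library 60. The share of Glyma.11G221000 did so at 2.93 and 3.02 under the same 2 omissions. With zeros kept, 19 correlations passed in place of 36. Median-of-ratios scaling moved the median log2 difference of all genes to 0.03 and quantile normalization to 0.05. The rank-sum test called Glyma.13G046200 lower (adjusted p = 0.00049). Alternatives that treat the members' zeros as missing, and those without libraries 17, 47, 61, NAM48 or NAM29, were chosen after seeing the data.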
